A study of Homo sapiens with 8 samples.

Results

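The RAB genes encode the largest family of small GTPases of membrane traffic, and the data described here are the YTHDF2 binding sites that lie in them. Members were all protein-coding genes whose symbol is RAB followed by a number and at most 1 letter. There were 63 of them among 19942 protein-coding genes. A site was counted for a member when its position lay between the gene's ends on the gene's strand. By this rule 104 of the 37613 distinct positions in the list were in RAB genes, and 37 of the 63 members had at least 1.

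YTHDF2 was mapped by iCLIP2, in which ultraviolet light fixes the protein to RNA and cDNA synthesis halts at the base that was fixed. All 8 libraries were made from wild-type HEK293T, a cell line derived from human embryonic kidney. They form 2 groups, 4 libraries treated with 20 µM STM2457 in 0.2% DMSO and 4 treated with 0.2% DMSO and no inhibitor, for 12 h in both groups. STM2457 inhibits METTL3, the enzyme that writes N6-methyladenosine (m6A) in mRNA, and the study asked which YTHDF2 contacts depend on m6A. The analysed list gives 1 score per row and no value for any single library. STM2457 was therefore not compared with DMSO, no replicate error can be given, and the depth behind a site is unknown. For the same reason no p-value is given. Counts over the whole family stand beside the same count over all protein-coding genes where one was made, and counts within the family, by compartment or paralog group, are descriptions.

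RAB proteins switch between a GTP-bound form, which sits on a membrane and recruits effectors, and a GDP-bound form that is kept soluble by GDP dissociation inhibitors. Exchange factors (GEFs) load GTP and GTPase-activating proteins (GAPs) end the signal, while a lipid tail added by geranylgeranyl transferase anchors the protein. Each RAB marks particular compartments, so the family is often read as a map of the secretory and endocytic routes. YTHDF2 is a cytoplasmic reader of m6A that brings mRNAs to the deadenylation and decay machinery. m6A in mRNA is known to be frequent around stop codons, in long internal exons and in 3′ untranslated regions.

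RAB genes carried YTHDF2 sites in 37 of 63 cases (58.7%), against 39.2% of 19853 protein-coding genes. The 19853 leave out 89 genes whose strand could not be settled and include, as genes without a site, 2847 with no listed strand and no position in their span. Without RAB33A, whose strand was not settled either, the RAB share was 59.7% (37 of 62). The bound members had few sites each, a median of 2 (quartiles 1 and 3), whereas the median over all bound protein-coding genes was 3 (quartiles 2 and 6). Exactly 1 site was present in 10 RAB genes, 2 sites in 11, 3 sites in 8 and 4 sites in 1. At least 5 sites were found in 7 members (11.1%), against a background of 15.1% of all protein-coding genes. Only RAB40C reached 10 sites, or 1.59% of the family, against a background of 4.98%. The family was thus above the background for having any site and below it for having many, and neither difference was tested. The 7 members with 5 or more sites held 44 of the 104 sites (42.3%). RNA abundance was not measured here, so a gene with little RNA and a gene whose RNA is not bound by YTHDF2 cannot be told apart.

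**Figure D1:**
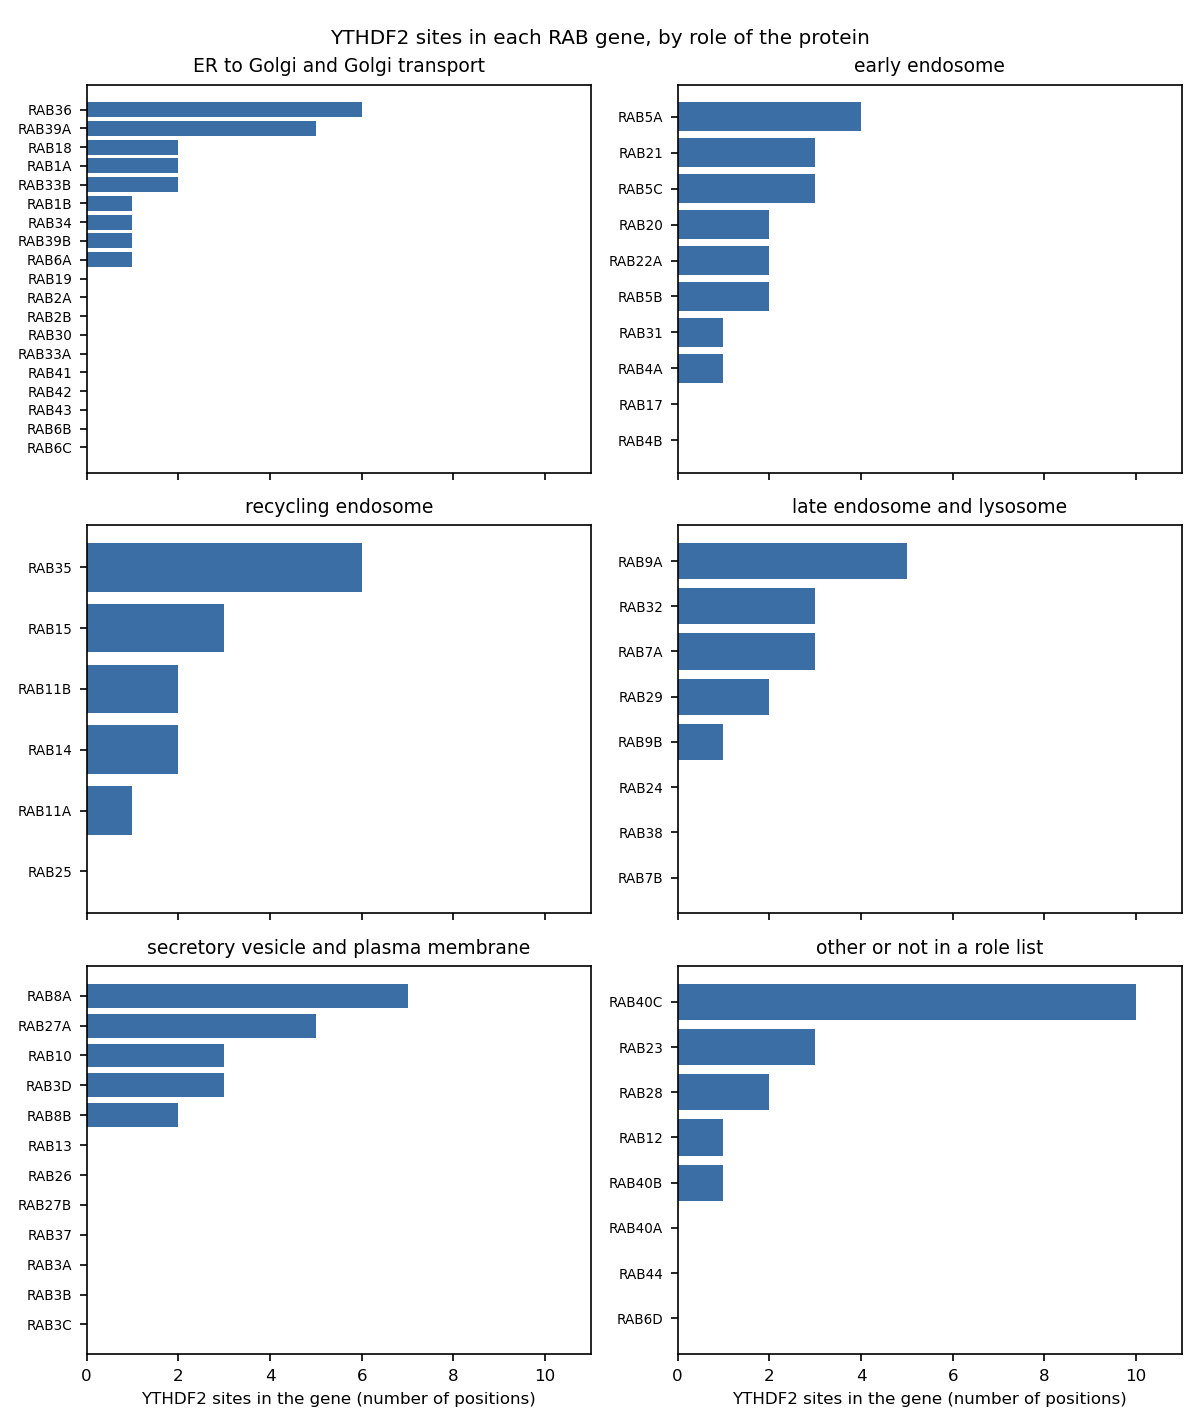
Number of YTHDF2 sites (distinct positions, horizontal axis) in each of the 63 RAB genes, 1 bar per gene, in panels by the compartment list in which the gene was placed. Some members also act elsewhere. RAB40C has the longest bar with 10 sites, RAB8A follows with 7, and genes without a bar have no site assigned.

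Gene length did not sort the members by their number of sites. The Spearman correlation between sites and genomic gene length was 0.12 across the 63 RAB genes and 0.16 across the 19853 protein-coding genes, as a description over genes that are not independent. Bound RAB genes had a median span of 35.0 kb, and the 26 without a site had a median of 25.1 kb. In all protein-coding genes these medians were 31.7 and 19.2 kb. RAB38, the longest member at 372 kb, had no site, nor did RAB3C at 277 kb or RAB27B at 178 kb. Per kb of genomic sequence, RAB8A had the most among members with 3 or more sites (0.313 per kb). RAB35 (0.277), RAB32 (0.270), RAB40C (0.251), RAB36 (0.250) and RAB9A (0.234) came next. The median over bound members was 0.0843 sites per kb, against 0.1095 over all bound protein-coding genes.

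RAB40C, which stands apart from the trafficking RABs because its protein carries a SOCS box and serves as an adaptor of a cullin ubiquitin ligase, had the most sites. Its 10 sites lay on the plus strand of chromosome 16 between 625475 and 629130 (GRCh38). They covered 3.66 kb of a gene of 39.9 kb, and 9 of the 10 lay in the last 2 kb. The first, at 625475, had a score of 3.76. The score is the authors' own, on a scale that neither the file nor the labels state, and it serves only to rank sites within the list. A group of 3 followed at 627591, 627789 and 628033 with scores of 32.9, 16.9 and 14.9. The next 3, at 628345, 628361 and 628407, lay 16 and 46 nt apart and scored 0.546, 5.14 and 1.77. The last 3 were at 628944 (3.95), 628993 (15.0) and 629130, which at 48.2 was the highest of the gene and lay 138 nt from its 3′ end. After the first site, scores thus fell from 32.9 to low values and rose again to 48.2 near the 3′ end. Of its near relatives, RAB40B had 1 site, at 82657894 on chromosome 17 with a score of 6.47, and RAB40A had none.

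Secretory vesicle and plasma membrane RABs had a site in 5 of 12 genes (41.7%), close to the 39.2% of all protein-coding genes, and 20 sites in all. RAB8A, which acts in exocytosis and in building the primary cilium, had 7 sites on chromosome 19 between 16132344 and 16133775, on the plus strand. All 7 lay in the last 2 kb of the 22.3 kb gene. The first scored 31.5 and the fourth, at 16132880, scored 22.0. The sites at 16133053 and 16133221 scored 4.96 and 9.04, and those at 16132469, 16132839 and 16133775 scored 3.14, 0.252 and 0.368. The RAB8A stretch therefore held sites from both the upper and the lowest part of the score range. RAB8B, its closest paralog, had 2 sites at 63263623 and 63263736 on chromosome 15, which scored 23.9 and 53.0. RAB8B thus had fewer sites than RAB8A, but its lower score exceeded 6 of the 7 scores in RAB8A.

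RAB27A, which tethers melanosomes and lytic granules and acts in exosome release, counted 5 sites, all on the minus strand of chromosome 15 between 55317287 and 55317836. They lay 1287 to 1836 nt from the gene's 5′ end and 114321 to 114870 nt from its 3′ end, with scores from 2.46 to 18.2. All 5 positions also lie in PIGBOS1, a gene for a small mitochondrial outer membrane protein that overlaps RAB27A on the same strand. The list cannot say which of these RNAs was bound. Without these shared positions, RAB27A had no site. Its paralog RAB27B had none.

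RAB3D, found on secretory granules, was the only one of the 4 RAB3 genes with a site. Its 3 sites lay on the minus strand of chromosome 19 at 11325197, 11325155 and 11324883, and scored 65.5, 54.3 and 9.22. Where the strand of every gene was taken from its positions, RAB3D had 0 sites, and so no RAB3 gene was bound. RAB3A, RAB3B and RAB3C, which are best known from regulated exocytosis in neurons and endocrine cells, had no site. RAB10, which directs the glucose transporter GLUT4 to the cell surface in adipocytes, differed in layout. Its 3 sites were spread over 93.7 kb of a 104 kb gene on chromosome 2, at 26034247 (18.9), 26109896 (1.74) and 26127905 (1.48), and the first was 962 nt from the 5′ end. RAB13, RAB26 and RAB37 had no site.

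Late endosome and lysosome RABs had a site in 5 of 8 genes. RAB9A, which returns mannose 6-phosphate receptors from late endosomes to the Golgi, held the highest score of the family. Its 5 sites lay on chromosome X between 13708820 and 13709465, within 0.646 kb of a 21.4 kb gene. In order along the plus strand they scored 138, 15.98, 29.2, 21.7 and 4.14. The first stood at percentile 98.3 of all positions and was the only RAB site above percentile 95. This position is on 2 rows of the list, with a score of 31.2 on the other row. RAB9B, its paralog, had 1 site at 103825626, which scored 2.37 and lay 49302 nt from the 3′ end.

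RAB32, an organizer of melanosome and lysosome-related organelle formation, had 3 sites on chromosome 6, at 146549662 (6.28), 146554570 (2.35) and 146554754 (57.9). RAB29, a regulator of the kinase LRRK2, had 2 sites on chromosome 1, at 205769968 (10.97) and 205769548 (53.9). In both genes the highest score was at the site nearest the 3′ end, 199 nt away in RAB32 and 1562 nt in RAB29. RAB7A, the master RAB of late endosomes, had 3 low-ranking sites on chromosome 3, at 128806462 (1.31), 128813466 (3.52) and 128813790 (6.38). RAB24, RAB38 and RAB7B had no site.

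Early endosome RABs had a site in 8 of 10 genes, 18 sites in all, and no member had more than 4. All 3 RAB5 genes, which drive fusion of early endosomes, were bound. RAB5A had 4 sites on chromosome 3 in separate pairs, 1 pair near each end of the gene. The first pair was at 19950880 (5.27) and 19950897 (15.3), and the second at 19983926 (2.64) and 19984050 (4.37). RAB5C had 3 sites, which scored 1.11, 10.1 and 5.99, and RAB5B had 2, which scored 10.4 and 2.77. The RAB5C sites lay 353 to 1812 nt from the 3′ end, and the RAB5B sites 4214 to 4510 nt. RAB21, which acts in integrin traffic, had 3 sites within 0.123 kb on chromosome 12, at 71785699, 71785709 and 71785821, with scores of 6.28, 17.8 and 7.36. They lay 14465 to 14587 nt from the 3′ end of the gene. RAB20 and RAB22A had 2 sites each. RAB31 had 1 site, at 9859390 on chromosome 18, which scored 37.5, and RAB4A had 1 that scored 19.8. RAB17 and RAB4B had none.

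Recycling endosome RABs had a site in 5 of 6 genes. RAB35, which acts in fast recycling and in cytokinesis, had 6 sites on the minus strand of chromosome 12 between 120095252 and 120099056, within 3.81 kb of a 21.7 kb gene. From 5′ to 3′ they scored 11.6, 3.61, 1.13, 14.2, 1.93 and 0.841. Only 2 of the 6 stood above the median score of the list, 8.67. RAB15 had 3 sites on chromosome 14 at 64947424, 64946229 and 64946167, with scores of 4.66, 4.60 and 5.84. Its strand came from its positions, and it had 0 sites where only strands of the promoter table counted. RAB11B and RAB14 had 2 sites each. RAB11A, the best-known RAB of the slow recycling route, had 1 site, at 65879697 on chromosome 15. Its score of 0.249 was the lowest of the 104 sites, at percentile 1.76 of the list. RAB25, a relative of RAB11 known from epithelia, had none.

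RABs of endoplasmic reticulum to Golgi and Golgi transport had a site in 9 of 19 genes. This list is broad, and some of its members also act elsewhere. RAB36, a relative of RAB34, had 6 sites on chromosome 22 between 23161859 and 23163814, all 5466 to 7421 nt from the 3′ end. They scored 7.67, 1.48, 2.75, 9.82, 11.8 and 5.19 in order along the plus strand. The strand of RAB36 was taken from these positions, since the other gene there, RSPH14, is on the opposite strand. RAB36 had 0 sites under both other strand rules, strands from positions alone and strands from the RefSeq promoter table alone. RAB39A, which acts in phagosome and autophagosome maturation, had 5 sites on chromosome 11, the outermost at 107962096 and 107962391, a stretch of 0.296 kb. They scored 26.2, 21.0, 7.28, 11.2 and 1.28, and all lay 1091 to 1386 nt from the 3′ end. RAB39B, altered in forms of intellectual disability and parkinsonism, had 1 site that scored 3.58.

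The core RABs of this route had few sites. RAB1A, needed for vesicle tethering between endoplasmic reticulum and Golgi, had 2 sites that scored 12.9 and 3.71. RAB1B had 1, at 66276615 on chromosome 11, which scored 35.1. RAB6A, of retrograde Golgi traffic, had 1 that scored 8.79. RAB2A, RAB2B, RAB6B, RAB6C and RAB6D had none. RAB6C is an intronless copy derived from RAB6A, and no label or header says how reads that match both were placed. RAB18 and RAB33B had 2 sites each and RAB34 had 1. RAB19, RAB30, RAB41, RAB42 and RAB43 had none. For RAB33A no site was assigned. The single position in its span, at 130139812 on the minus strand of chromosome X, also lies in AIFM1, which is on that strand, and the strand of RAB33A was not settled here.

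Among the remaining members, RAB23, an inhibitor of Hedgehog signalling, had 3 sites within 0.078 kb on chromosome 6, at 57190340, 57190336 and 57190263. They scored 11.02, 4.88 and 10.6, and 2 of them were 4 nt apart, the closest pair in the family. RAB28, known from photoreceptor cilia, had 1 site 197 nt from its 5′ end (7.496) and 1 site 875 nt from its 3′ end (12.0). RAB12 had 1 site and RAB44 none.

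Paralogs that share a RAB number formed 14 groups with 34 genes. Of these groups, 6 had a site in every gene, 7 in some and 1, RAB2, in none. Over the whole family 58.7% of members had a site. Whether paralogs differ in having sites more or less often than other members was not tested. The widest differences in number were 10 in RAB40, with RAB40C at 10, RAB40B at 1 and RAB40A at 0, and 5 in RAB8, with RAB8A at 7 and RAB8B at 2. RAB27 also differed by 5, through the positions shared with PIGBOS1. RAB9 and RAB39 differed by 4, and RAB3 and RAB7 by 3. RAB5 and RAB33 differed by 2, and RAB1, RAB4, RAB6 and RAB11 by 1. RAB33A enters with 0 because its strand was not settled. With its single position counted, RAB33 differed by 1, and 7 groups had a site in every gene and 6 in some. Other settings also moved groups. Without the positions shared with PIGBOS1, RAB27 had no site in any gene, and with strands from positions alone neither RAB3 nor RAB27 had one. With table strands alone, RAB1 and RAB39 had a site in some genes only, and RAB33 had none.

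RAB sites lay close to the 3′ ends of their genes. In the 33 bound members that span 10 kb or more, 20 of 99 sites (20.2%) fell within 1 kb of the 3′ end, against 13.1% of 31453 sites in all protein-coding genes of that size. In the last 2 kb the shares were 51.5% for RAB genes and 24.7% for all, and in the last 5 kb they were 73.7% and 48.3%. The median distance from the 3′ end was 1890 nt for RAB sites and 5377 nt for all sites. The last 10% of the gene held 65.7% of RAB sites and 43.7% of all sites, whereas the first 1 kb held 2.02% and 3.29%. Exon and stop codon positions were not used here, so these distances run along genomic sequence and do not separate coding sequence from untranslated region.

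**Figure D2:**
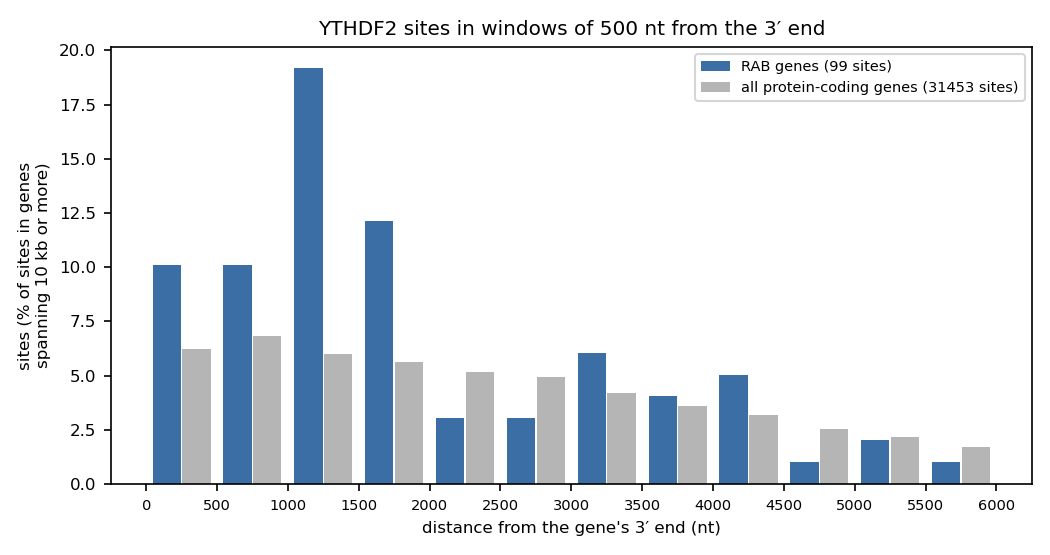
Percent of sites in each window of 500 nt counted from the gene's 3′ end, out to 6000 nt, for 99 sites in RAB genes and 31453 sites in all protein-coding genes, each spanning 10 kb or more. The RAB bars are tallest from 1000 to 1500 nt, at 19.2%, where all genes reach 5.999%.

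The stretch from 1 to 2 kb before the 3′ end held 31 RAB sites (31.3%), against 11.6% of all sites. A few genes made up much of it. RAB8A had 6 sites there and RAB39A and RAB9A had 5 each, 16 of the 31. Without these 3 genes the share was 18.3% (15 of 82 sites), and the last 2 kb held 41.5%, the last 1 kb 23.2% and the last 5 kb 68.3%. The median distance without them was 3108 nt.

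Counted by gene, the family stood nearer to the background. A site in the last 2 kb was found in 17 of 33 RAB genes (51.5%), against 47.8% of 6255 protein-coding genes. For the last 1 kb the shares were 9 of 33 (27.3%) and 31.9%. For the stretch from 1 to 2 kb they were 13 of 33 (39.4%) and 26.5%. For the last 5 kb they were 26 of 33 (78.8%) and 71.6%. All of a gene's sites lay in the last 5 kb in 22 of the 33 RAB genes (66.7%) and in 38.6% of all such genes, a condition that a gene with few sites meets more easily. When each gene entered once, by its median distance, the median was 2921 nt for RAB genes (quartiles 1332 and 7146) and 4480 nt for all (quartiles 1716 and 15959). Sites farther than 5 kb from the 3′ end came from 11 members, among them RAB27A, RAB36, RAB10, RAB21 and RAB5A.

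**Figure D3:**
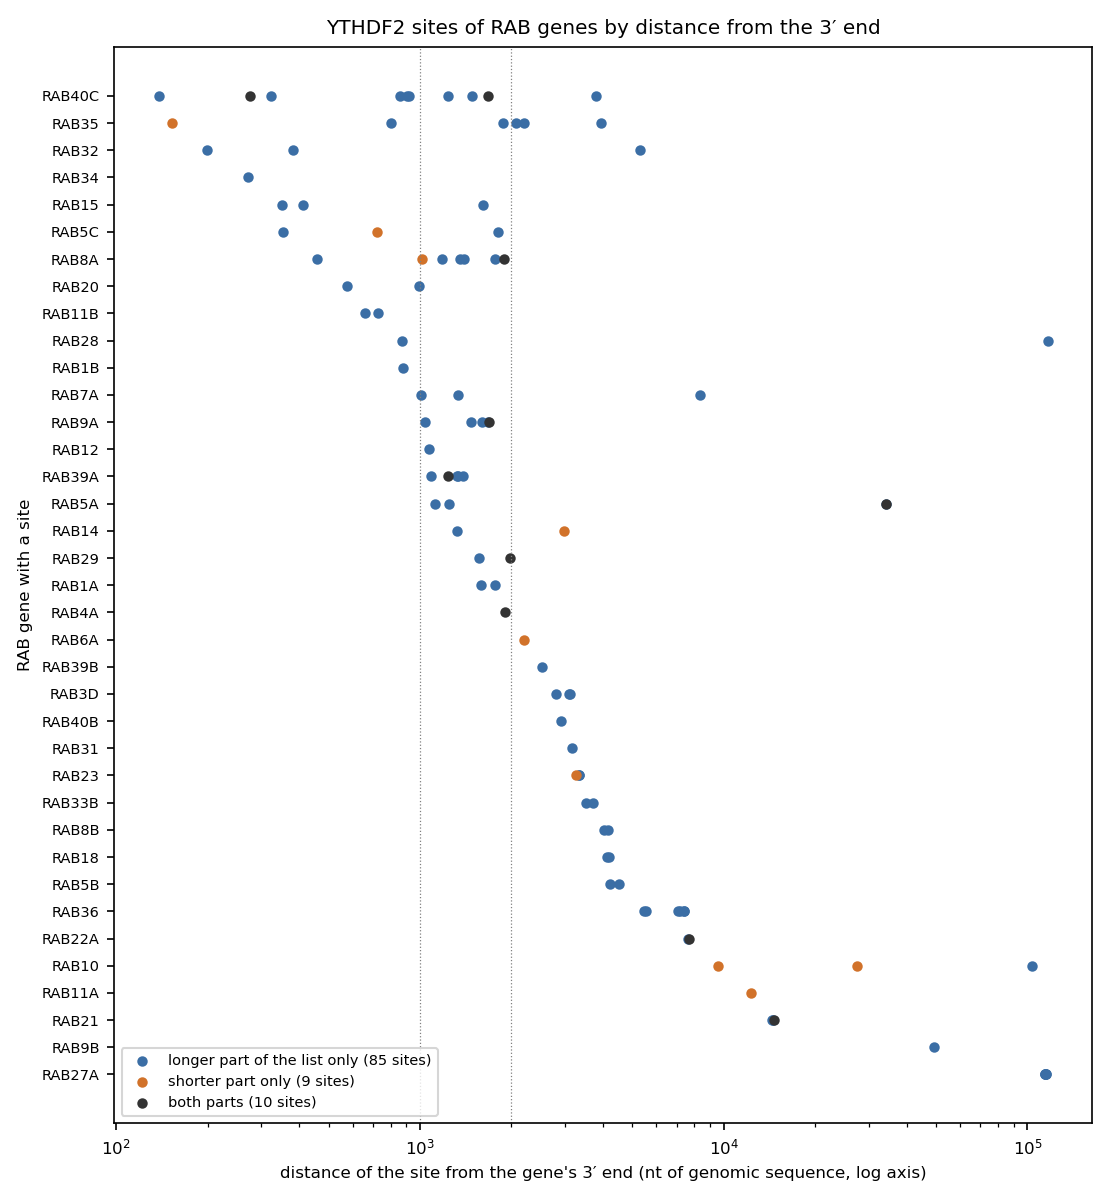
Distance of each of the 104 RAB sites from the 3′ end of its gene (nt of genomic sequence, log axis), 1 row per bound gene, coloured by the part of the list that holds the position; dotted lines mark 1000 and 2000 nt. Most rows have their points below 5000 nt, and the points of RAB8A, RAB9A and RAB39A fall almost entirely between the dotted lines.

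Scores of RAB sites spread over most of the list's range without its top. Their median was 7.43, with quartiles of 3.603 and 15.1, against 8.69 (quartiles 3.76 and 20.9) over sites in all protein-coding genes. Split at the quartiles of the whole list, from low to high scores, RAB genes held 28, 28, 29 and 19 sites. The top 1% of the list, scores from 176, held none of them. After RAB9A, the highest scores per gene were 65.5 in RAB3D, 57.9 in RAB32, 53.9 in RAB29, 53.0 in RAB8B, 48.2 in RAB40C, 37.5 in RAB31 and 35.1 in RAB1B. Genes with more sites tended to hold a higher top score (Spearman rho 0.43 over 37 genes, a description, since more sites give more chances of a high one).

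**Figure D4:**
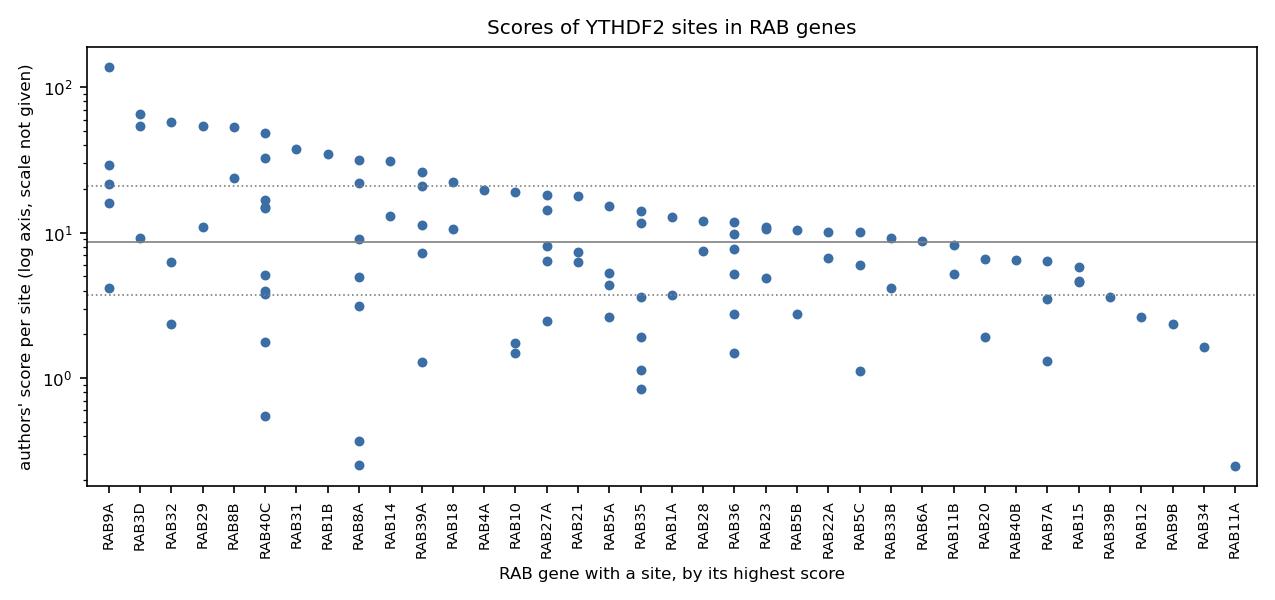
Authors' score of each RAB site (log axis, scale not given), by gene in order of its highest score; the solid line is the median of all positions, 8.67, and the dotted lines are the quartiles, 3.75 and 20.8. RAB9A reaches 138, and the single site of RAB11A is lowest at 0.249.

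Sites within a gene were mostly close together. Of the 67 gaps between neighbouring sites of a member, 39 were of 200 nt or less and 13 of 50 nt or less, and the median was 173 nt. A neighbour within 50 nt was found for 25 RAB sites (24.0%), against 29.7% of sites in all protein-coding genes. RAB40C had 3 of the 13 short gaps and 10 other members had 1 each. RAB5A, RAB10 and RAB28 had another layout, with sites spread over 87.1%, 89.9% and 99.1% of the gene.

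The rows run through the chromosomes 4 times on each strand. For this report, the first 2 runs were joined as the shorter part of the list and the later runs as the longer part. The meaning of the runs and parts is not labelled, and a position can stand in both parts. Whether the parts belong to the 2 treatments is not stated, so the joined counts, and the higher score used for a position in both parts, may mix STM2457 and DMSO libraries. Of the RAB sites, 10 stood in both (9.62%, against 14.8% over all protein-coding genes). Another 9 stood in the shorter part alone (8.65%, against 8.94%), and 85 in the longer part alone. The score was higher in the longer part at 8 of the 10 shared positions. The widest difference was at RAB40C position 627591, with 32.9 in the longer and 4.66 in the shorter part. RAB29 (1.85 and 10.97) and RAB21 (4.38 and 6.28) went the other way. RAB11A and RAB6A rest on the shorter part alone, as do 2 of the 3 RAB10 sites.

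Genes that regulate RABs or act with them had a site in 44.4% to 66.7% of cases by list, and a median of 3 to 5.5 sites per bound gene. RAB GEFs had a site in 30 of 55 genes (54.5%) with a median of 3 sites per bound gene. SMCR8, a partner of C9orf72, had 27, and GAPVD1 and HPS4 had 13 each. RAB GAPs had a site in 20 of 45 genes (44.4%) with a median of 5.5, led by TBC1D16 with 13, TBC1D10B with 12 and TBC1D4, the AKT substrate of glucose uptake, with 11. RAB effectors had a site in 42 of 78 genes (53.8%) with a median of 5, led by the RAB11 effector RAB11FIP1 with 19, MICAL3 with 17 and ANKFY1 with 16. Factors of RAB prenylation and solubility, with PRA and YIPF membrane proteins, had a site in 10 of 15 genes (66.7%) and a median of 3. CHML, an escort protein for prenylation, counted 18 there, all of them in another gene on the same strand as well. GDI2 had 6 and ARL6IP5 had 5.

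**Figure D5:**
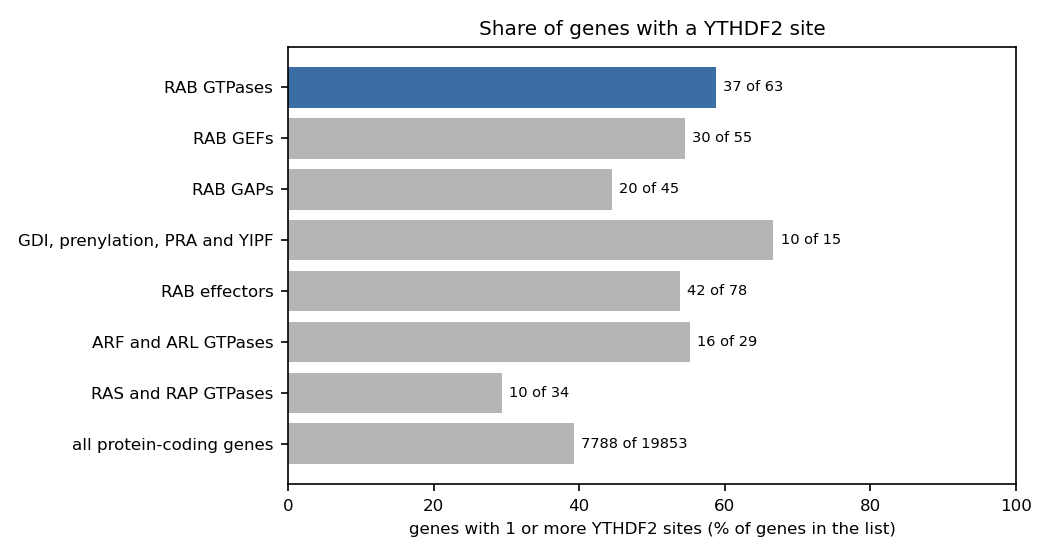
Percent of genes with 1 or more YTHDF2 sites in the RAB family, in 4 lists of genes that act with RABs, in 2 related GTPase families and in all protein-coding genes, with numbers of genes beside the bars. The RAB bar is at 58.7% and the bar for all protein-coding genes at 39.2%.

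Among related small GTPases, ARF and ARL genes had a site in 16 of 29 (55.2%, median 3.5), with ARL10 at 13 and ARF6 at 8. RAS and RAP genes had a site in 10 of 34 (29.4%, median 2.5), led by RAP2A and RAP2C with 9 each and DIRAS1 with 7. In genes spanning 10 kb or more, the last 2 kb held 51.5% of RAB sites. The share was 10.8% of 37 ARF and ARL sites and 12.5% of 24 RAS and RAP sites. In the lists that act with RABs it ran from 20.1% for GEFs to 30.3% for GAPs. Differences between these lists were not tested.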

How the data were processed

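The deposited file is a list of binding sites of 1 nt with strand and a score per row, made by the authors, with no value per library. No source states the scale of the score or how sites were called and libraries combined. The build was GRCh38.p12, and STAR 2.7.3a, bedtools 2.27.1, FastQC 0.11.8 and UMI-tools 1.0.0 were used in unstated roles, per the submitters' processing notes.

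The 43178 rows were joined to 37613 positions, keeping the higher score of the 5565 on 2 rows. Gene extents came from a RefSeq table on GRCh38.p14, without 95 readthrough genes. Strands came from RefSeq promoters (50 RAB members) or from the majority of positions that no other gene on that strand could hold (7 members), and were unsettled in 89 genes. A position in overlapping genes counts for each. No genome sequence or exon annotation was used, so no sequence is shown.

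Members and lists were chosen with earlier results of these data known. Named in full are the 12 members with most sites, the 8 with the highest scores, the 6 densest with 3 or more sites and paralogs that differ by 5 or more. Other lists give their top 3; a few of these values are left out here. Other members and the wider windows were chosen after their values were seen. In a simulated list, counts of 200 of 200 genes were recovered. The expected counts followed the same span and strand rule, so this checked the counting only. All 200 had a promoter strand, so strands taken from positions were not checked. Computation used Python 3.11.15 and pandas 2.3.3.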

Additional observations from a re-analysis of the deposited data

How the results depend on the processing

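No paired analysis was possible because the list carries no value for any library or replicate number. The count of 37 bound RAB genes was 36 to 38 with chains, unshared positions or RAB33A counted. It was 35 in the longer part (55.6% of members, against 38.2% of all protein-coding genes). Other strand rules were added after seeing the data. With strands from positions alone it was 34, and with table strands alone, which 50 of the 63 members had, it was 30. No share over all genes was made for these strand rules, for unshared positions or with RAB33A counted. The count was 27 with scores at or above the median. In the shorter part it was 16. With those scores the 104 sites became 48, the median per bound gene 1 and the sites of the named genes 36, against 73. In the shorter part these were 19, 1 and 13. Fewer positions entered in both settings: all protein-coding genes were bound in 30.7% and 22.7% of cases, beside 42.9% and 25.4% of RAB genes. The share of sites in the last 1 kb was 10.1% for a window of 500 nt and 51.5% for 2000 nt, as a narrower or wider window must give. The median score was 6.52 with the lower and 7.01 with the mean of 2 scores. With chains, RAB40C had 7 sites. Where strands came from positions alone, RAB27A, RAB36 and RAB3D had 0. RAB36 and RAB15 had 0 where only table strands counted.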
